A study of Mus musculus with 4 samples.

Results

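Opposite-strand long noncoding RNAs are transcripts named after a neighbouring gene with the ending os, sometimes followed by a number, because they are transcribed from the other DNA strand of that gene's locus. They were taken as every symbol of the deposited noncoding RNA table that ends in this way, with the transcript of the highest mean over the 4 libraries standing for a symbol. This gave 187 of the 4973 symbols of the table. The libraries come from C57BL/6 mouse embryonic stem cells at passages 25 to 30, kept without feeder cells on gelatin in LIF and serum. The series concerns decay of noncoding RNAs by Dis3l2. There is 1 library each of RNA from an immunoprecipitation (IP) with anti-FLAG M2 affinity gel, made from cells transfected with FLAG-tagged mutant Dis3l2, of the same IP from mock-transfected cells, and of input RNA after RiboMinus selection from the mutant and from the mock cells. The labels do not name the mutation, and the gel IP of mock cells is the background of the mutant IP. With 1 library in each group no difference below has a replicate check, and no p-value is given.

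As background, many opposite-strand RNAs start near the promoter of a protein-coding gene and run away from it, while others overlap its exons or introns. Some act on the partner gene: in mouse neurons the antisense RNA of Uchl1 raises translation of the Uchl1 mRNA, and in human cells an antisense RNA of ZEB2 influences splicing of the ZEB2 leader. Dis3l2 is an exoribonuclease that degrades RNA from its 3′ end and prefers RNA with an added uridine tail. It is known for the decay of uridylated small noncoding RNAs and of the let-7 precursor in embryonic stem cells.

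The names could be set against their loci for part of the members. A RefSeq gene table of assembly GRCm38 held the partner symbol, which is the symbol with its ending removed, of 183 of the 187 members. The exceptions were Ict1, Pramef12 and Prosc, which the table lists as older names of Mrpl58, Pramel13 and Plpbp, and the letters Et left from Etos1, for which it has no gene. Etos1 is therefore a member by its name only. For 90 pairs the start sites and spans of both genes were in the RefSeq tables. All 90 of these lay on opposite strands of the same chromosome, 73 had overlapping spans, and 26 had start sites within 1000 bases of each other. The ending os names an RNA of the other strand, so opposite strands follow from the naming. Of the overlapping pairs 21 of 73 had an opposite-strand RNA with at least 20 reads over the 4 libraries, against 8 of the 17 pairs whose spans lay apart.

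Promoter sequences of 4 members are shown because their values carry the account below: Vax2os and Kirrel3os had the most input reads, while among members with at least 20 IP reads Uchl1os was one of the highest and Rsf1os2 the lowest between the IPs. They run 5′ to 3′ on the strand of the opposite-strand RNA, from 250 bases before to 50 after the first start listed by RefSeq (GRCm38.p6), and capitals mark the dinucleotide CG. The intervals are chr6:83712152-83712451 for Vax2os, chr9:35007646-35007945 for Kirrel3os, chr5:66676448-66676747 for Uchl1os and chr7:97696418-97696717 for Rsf1os2, each on the minus strand.
Vax2os: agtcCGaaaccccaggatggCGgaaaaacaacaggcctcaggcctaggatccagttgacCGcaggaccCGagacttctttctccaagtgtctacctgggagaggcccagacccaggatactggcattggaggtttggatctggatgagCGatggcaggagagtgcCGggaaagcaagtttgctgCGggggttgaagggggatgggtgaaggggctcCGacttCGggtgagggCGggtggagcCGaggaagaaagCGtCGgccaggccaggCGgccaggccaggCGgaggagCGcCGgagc
Kirrel3os: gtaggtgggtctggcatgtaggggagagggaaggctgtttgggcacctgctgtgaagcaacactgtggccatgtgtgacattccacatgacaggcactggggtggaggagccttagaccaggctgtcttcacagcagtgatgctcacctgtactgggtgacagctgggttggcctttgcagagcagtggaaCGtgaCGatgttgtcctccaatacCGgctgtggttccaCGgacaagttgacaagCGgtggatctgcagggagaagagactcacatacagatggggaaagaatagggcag
Uchl1os: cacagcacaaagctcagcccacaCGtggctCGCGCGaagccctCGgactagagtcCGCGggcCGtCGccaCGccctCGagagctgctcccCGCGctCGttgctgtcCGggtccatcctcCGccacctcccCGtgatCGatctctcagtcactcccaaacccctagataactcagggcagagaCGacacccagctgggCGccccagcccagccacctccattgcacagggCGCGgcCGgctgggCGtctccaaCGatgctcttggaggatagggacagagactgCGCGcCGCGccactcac
Rsf1os2: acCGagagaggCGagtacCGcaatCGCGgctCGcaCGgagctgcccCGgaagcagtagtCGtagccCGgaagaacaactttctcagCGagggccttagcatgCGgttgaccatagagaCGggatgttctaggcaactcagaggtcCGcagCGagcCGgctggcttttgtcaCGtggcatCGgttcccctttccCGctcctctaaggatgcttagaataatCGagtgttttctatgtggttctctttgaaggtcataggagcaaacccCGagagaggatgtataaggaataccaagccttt
Uchl1os and Rsf1os2 had 29 and 21 CG dinucleotides in these windows and Vax2os had 17, whereas Kirrel3os had 5. Over the 113 members with a promoter in that table the median was 6, against 7 over 27025 genes, with median GC contents of 53.7% and 52.7%. The motif TATAAA, searched on both strands, was found in 11 of the 113 windows (9.74%) and in 14.2% of all promoters, and in 0 of the 4 shown. The counted Ensembl transcript need not begin at the RefSeq start, and RefSeq lists a further start for Vax2os, Kirrel3os and Rsf1os2.

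Reads are given below as whole reads recovered from the deposited values, and every ratio is taken on the deposited values, which are those reads divided by a constant of each library. The noncoding table held 3183346 reads in the mutant IP, 2157604 in the mock IP, 2746737 in the mutant input and 2738512 in the mock input. The members took 4811, 3591, 6295 and 5946 of these, or 0.151%, 0.166%, 0.229% and 0.217% in the same order. The markers of embryonic stem cells bear out the label. In the mRNA table all 12 of them had reads in both IPs, with 4058 mutant IP reads and 2886 mock IP reads. They had 137 reads in the mutant input, where 10 of the 12 had a read, and 211 in the mock input. That table held 2275647 mutant IP, 1860030 mock IP, 307324 mutant input and 291175 mock input reads, so the inputs were poor in mRNA reads. Of 7 fibroblast markers 3 were listed, with 99, 27, 16 and 10 reads in the order above, and Col1a1 held most of the IP reads; their part in the results was not tested. The Dis3l2 mRNA had 127, 21, 7 and 3 reads. Strand use in the counting (not given in the sources used here) leaves a limit: reads of an opposite-strand RNA and of an overlapping sense gene cannot be told apart. Values were not divided by transcript length, so reads are not compared between genes as levels.

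Of the 187 members, 171 had a read in some library and 16 had none. In all 4 libraries 51 members had a read, 62 had reads in an IP and none in either input, and 16 had reads in an input and none in either IP. The same counts were not taken over all symbols, so they are not read as a trait of the members. At least 20 reads over the 4 libraries were found for 69 members. The reads were spread unevenly: in the mutant input 55.1% and in the mock input 54.9% of the members' reads lay on Kirrel3os, Vax2os, Etos1, Ict1os and Emx2os, while the 5 members with the most reads took 28.2% of mutant IP and 30.3% of mock IP member reads. The plot of reads by library shows this change of order between the kinds of library.

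**Figure D1:**
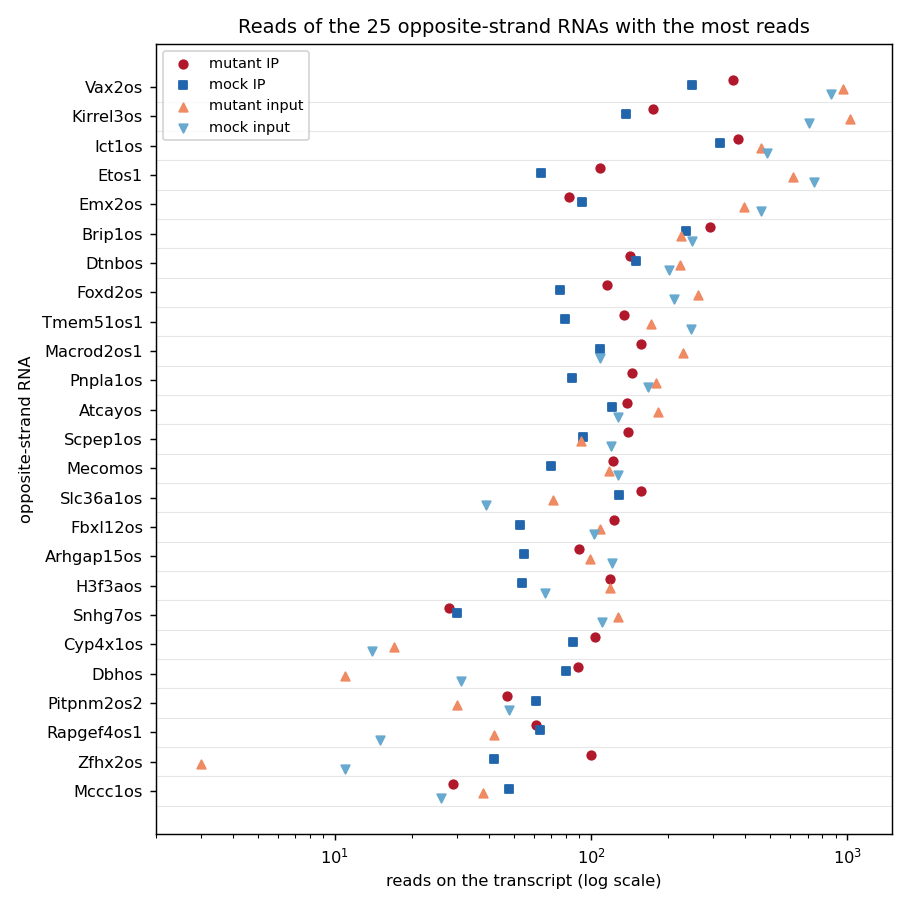
Reads on the transcript (log scale) for the 25 opposite-strand RNAs with the most reads over the 4 libraries, 1 point per library. Vax2os, Kirrel3os, Etos1 and Emx2os have both input points to the right of both IP points, while Cyp4x1os, Dbhos and Zfhx2os have both IP points to the right.

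Members whose partner is a developmental regulator, a list of 21 that was chosen by the partner's name, had many input reads for a few members only. Vax2os lies opposite Vax2, a homeobox gene of the ventral retina, and had 358 reads in the mutant IP, 248 in the mock IP, 965 in the mutant input and 863 in the mock input. Emx2os, opposite the forebrain and urogenital homeobox gene Emx2, had 82, 92, 397 and 460 in the same order. Foxd2os, opposite a forkhead gene, had 115, 76, 261 and 210. All 3 had fewer reads in each IP than in its own input. Six3os1, opposite the eye and forebrain gene Six3, had 52, 15, 27 and 14 reads. Foxl2os, opposite the ovarian forkhead gene Foxl2, had 35, 9, 18 and 24. These last members differed from the first in that the mutant IP held the most reads. The others of the list had at most 85 reads over the 4 libraries, and Hoxd3os1, Tlx1os and Sox6os had 0 in each library.

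Among members with other partners, Kirrel3os, opposite a gene for a synaptic adhesion protein, had 175 reads in the mutant IP, 137 in the mock IP, 1029 in the mutant input and 711 in the mock input. Ict1os had 375, 318, 461 and 488, Brip1os, opposite a DNA repair helicase gene, 292, 235, 225 and 247, and Etos1 108, 64, 615 and 741. The libraries of Brip1os lay within a narrow range, whereas each IP of Kirrel3os and Etos1 lay far below its input. Nphs1os, opposite the nephrin gene, had 74 mutant IP reads, 36 mock IP reads and 0 in both inputs. It was 1 of 9 members with at least 20 reads and 0 reads in both inputs.

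The mutant IP was set against the mock IP, the control without tagged protein. Most members lay within 4-fold between them, and Uchl1os, Tmem147os and Pitpnm2os1 stood highest among those with at least 20 reads over both IPs. They reached this minimum through their mutant IP reads, so passing it adds no support to their ratios. Of 143 members with a deposited value of at least 1 in an IP, 13 were at least 4-fold higher in the mutant IP and 17 at least 4-fold lower, counted on the log2 scale with a pseudocount of 1, which understates the change of low features. Over the symbols of the noncoding table, 13.5% were higher and 5.99% lower by the same rule, or 12.4% and 5.37% over every transcript. The members' median log2 ratio was 0.40, against 0.47 over all symbols. Centring the libraries on their medians brought the median of all symbols to 0.10 and that of the members to 0.03, with 7.96% of symbols higher and 9.33% lower, beside 10 of 143 members higher and 19 lower. Equal totals gave 10.9% and 9.12% of symbols, beside 13 of 147 members higher and 19 lower. The lower members thus stood at 11.9% against 5.99% as deposited, 13.3% against 9.33% when centred and 12.9% against 9.12% with equal totals. Calls rested on few reads: 11 of the 13 higher members had 0 mock IP reads and 9 to 21 mutant IP reads, and 16 of the 17 lower members had 0 mutant IP reads and 8 to 18 mock IP reads. With at least 20 reads over both IPs, an alternative chosen after seeing the data, 3 of 63 members were higher and 1 was lower, against 11.9% and 1.63% of 1964 symbols. With a pseudocount of 5, 0 members were higher and 0 lower.

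The 3 higher members with at least 20 IP reads were Uchl1os, Tmem147os and Pitpnm2os1. Uchl1os, opposite the gene of a neuronal deubiquitinating enzyme, had 46 mutant IP reads and 5 mock IP reads, which gave a ratio of 8.52 (exact conditional binomial 95% interval 3.40 to 27.5). Its inputs went the other way, with 15 mutant reads and 31 mock reads for a ratio of 0.672 (0.337 to 1.28). Such intervals cover only the counting error of 1 pair of libraries, and PCR copies of a molecule are not independent reads. Tmem147os, opposite the gene of a membrane protein of the endoplasmic reticulum, had 39 mutant IP reads and 4 mock IP reads, which gave 9.03 (3.26 to 34.8), beside 0 mutant input reads and 4 mock input reads. Its other counted transcript had 14 mutant IP reads and 2 mock IP reads. Pitpnm2os1, opposite the gene of a phosphatidylinositol transfer protein, had 21 mutant IP reads and 0 mock IP reads, at least 6.48-fold higher against a floor of 3 reads in the mock library, beside 0 mutant input reads and 6 mock input reads. Pitpnm2os2 of the same locus was not higher in the mutant IP, with 47 mutant IP reads and 61 mock IP reads for a ratio of 0.713 (0.477 to 1.06).

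Below these came members whose interval lay above 1 but which stayed within 4-fold by the pseudocount rule. Slmapos2, opposite the gene of a sarcolemma-associated protein, had 84 mutant IP reads and 21 mock IP reads, or 3.70 (2.27 to 6.29). The ratio of Six3os1 was 3.21 (1.78 to 6.14), and its inputs differed in the same direction, by 2.68 (1.36 to 5.53). Foxl2os gave 3.6 (1.70 to 8.52), with an input ratio of 1.04 (0.533 to 2.0). Pcsk2os1, opposite the gene of a prohormone-cleaving protease, had 27 mutant IP reads and 6 mock IP reads, or 4.17 (1.68 to 12.3), which the pseudocount brought to 1.69 on the log2 scale, short of a call. Its inputs differed by the same ratio, 4.17 (1.26 to 17.7) from 12 mutant reads and 4 mock reads, and its specific enrichment was 0.13. Dnmt3aos, opposite the de novo DNA methyltransferase gene Dnmt3a, had 21 mutant IP reads and 6 mock IP reads, or 3.24 (1.26 to 9.81). In all, the interval lay above 1 for 23 of the 69 members with at least 20 reads, below 1 for 7 and across 1 for 39. Since the median of all noncoding symbols was itself above 0 between the IPs, an interval above 1 does not set a member apart from the table.

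Rsf1os2 was the lowest member with at least 20 IP reads, a minimum that it reached through the mock IP. It lies opposite Rsf1, which encodes a chromatin remodelling subunit, and had 3 mutant IP reads and 27 mock IP reads for a ratio of 0.103 (0.020 to 0.334). The inputs held 0 reads. Its other counted transcript had 10 mutant IP reads and 0 mock IP reads, so the direction was not shared by the transcripts of the symbol. Summed, they had 13 and 27 reads and a log2 ratio of -1.02, which ended the call. Tbx3os1, opposite the T-box gene Tbx3, had 5 mutant IP reads and 18 mock IP reads, or 0.257 (0.0746 to 0.719), while Tbx3os2 had 15 and 5, or 2.78 (0.960 to 9.77). Anxa11os, opposite an annexin gene, gave 0.450 (0.236 to 0.825) from 17 and 35 reads. Among the 102 members with at least 10 IP reads, the 5 lowest by the pseudocount rule had no mutant IP reads: Chn1os3 with 18 mock IP reads, Man2c1os, Nudt12os and Prkag2os2 with 16 each, and Abhd11os with 15. They were at least 6.48-, 5.76-, 5.76-, 5.76- and 5.4-fold lower. The higher end of that ranking had Fhitos with 18 mutant IP reads and Arhgap20os and Fam120aos with 14 each, against no mock IP reads for any of them, at least 5.56-, 4.32- and 4.32-fold higher. Of the 9 called members with several transcripts, 3 lost the call between the IPs when transcripts were summed: Rsf1os2, Arhgap20os at 1.78 and Irx3os at -0.10.

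**Figure D2:**
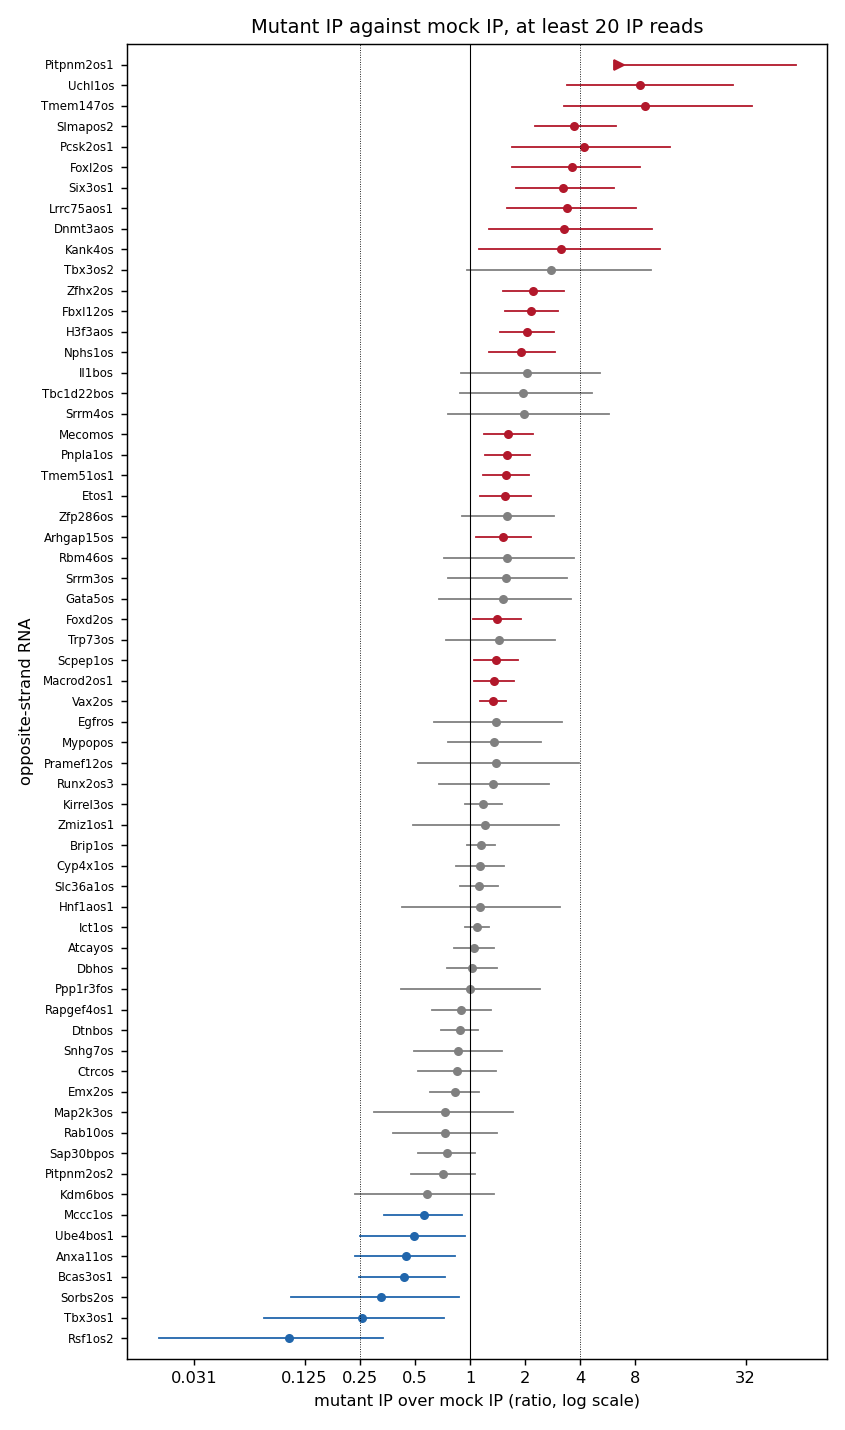
Mutant IP over mock IP (ratio, log scale) for the 63 opposite-strand RNAs with at least 20 reads in the IPs, with exact 95% intervals for counting error. Red marks intervals above 1, blue below 1 and grey across 1, dotted lines mark 4-fold, and the arrow for Pitpnm2os1 starts at its bound. The points of Uchl1os, Tmem147os and Pcsk2os1 and the bound of Pitpnm2os1 lie past the upper dotted line, and Rsf1os2 lies past the lower one.

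The specific IP enrichment, the mutant IP-to-input ratio over the mock IP-to-input ratio, had a median of 0.11 on the log2 scale over 154 members, against 0.03 over all symbols. By the 4-fold rule 17 members were higher and 22 lower, against 13.3% and 8.69% of 3968 symbols and 12.6% and 7.91% of all transcripts. The highest of the 111 members with at least 10 reads were Pitpnm2os1 at 4.90, Tmem147os at 3.95, Appbp2os at 3.29, Fam120aos at 3.13 and Uchl1os at 3.11. Appbp2os had 4 reads in the mutant IP, 1 in the mock IP, 1 in the mutant input and 19 in the mock input, so its inputs differed more (log2 -2.46) than its IPs (0.82). With its other transcript, which had 0 mutant IP reads and 15 mock IP reads, added, its specific enrichment was 0.89, which ended the call. The lowest were Anxa11os at -3.33, Sorbs2os at -3.20, Chn1os3 at -3.04 and Prkag2os2 and Nudt12os at -2.89. Anxa11os and Sorbs2os had 7 and 5 mutant input reads and 0 mock input reads, and log2 ratios between the IPs of -1.04 and -1.28. Chn1os3, Prkag2os2 and Nudt12os had 0 reads in both inputs, so their values repeat their ratios between the IPs. With at least 20 reads over the libraries 6 of 69 members were higher and 4 lower, against 13.1% and 5.34% of 2265 symbols. The median turned to -0.14 both there and with a minimum value of 5.

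Each IP was also set against its own input. Kirrel3os, Etos1 and Emx2os, with many input reads, lay below their input in mutant and mock cells alike, while Sap30bpos and Nphs1os lay above it in both. In the mutant 28 of 130 members were at least 4-fold higher in the IP and 10 lower, against 25.7% and 10.3% of all symbols, with a median of 1.0 against 0.90. Over all transcripts the shares were 26.2% and 9.18%. In the mock 33 of 116 were higher and 5 lower, against 23.5% and 10.7%, with a median of 1.29 against 0.79, and over all transcripts 23.9% and 9.67%. With at least 20 reads in the libraries used, 10 of 52 were higher and 7 lower in the mutant, against 25.9% and 14.6% of symbols, with a median of -0.01. For the mock 7 of 49 were higher and 5 lower, against 20.1% and 17%, with a median of -0.42. The labels describe RiboMinus selection for the inputs, so preparation and kind of library cannot be told apart.

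Members with 0 reads in both inputs reached 20 reads through their IPs, so that being above input was fixed for them by the read minimum. Many members with few input reads also reached it through their IPs, and the number above input is not read as a result. Etos1 was at 0.117 times input for mutant cells (0.0945 to 0.144) and 0.0864 times input for mock cells (0.0658 to 0.112). Mettl5os, opposite an RNA methyltransferase gene, was lowest in the mutant at 0.0476 times input (0.00944 to 0.149), from 3 IP reads and 42 input reads. Kirrel3os was at 0.113 (0.0960 to 0.133) and 0.193 (0.159 to 0.232), and Emx2os at 0.138 (0.107 to 0.175) and 0.200 (0.158 to 0.251). Vax2os was at 0.247 (0.218 to 0.280) and 0.287 (0.248 to 0.331). Brip1os stayed near its input, at 0.865 (0.725 to 1.03) and 0.951 (0.792 to 1.14).

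At the other end, Sap30bpos, opposite the gene of a SAP30-binding protein, had 59 mutant IP reads and 73 mock IP reads against 1 mutant input read and 4 mock input reads. This gave 39.3 times input for mutant cells (6.79 to 1580) and 18.2 times for mock cells (6.83 to 68.8). Cyp4x1os, opposite a cytochrome P450 gene, had 104 and 85 reads in the IPs against 17 and 14 in the inputs, at 4.08 (2.43 to 7.27) and 6.07 times input (3.43 to 11.6). Nphs1os, with 0 input reads, was at least 16.4-fold above input in the mutant and at least 12.0-fold in the mock. Zfhx2os, opposite a zinc finger homeobox gene, had 100 reads in the mutant IP, 42 in the mock IP, 3 in the mutant input and 11 in the mock input, at 22.2 (7.39 to 110) and 3.82 times input (1.93 to 8.22).

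**Figure D3:**
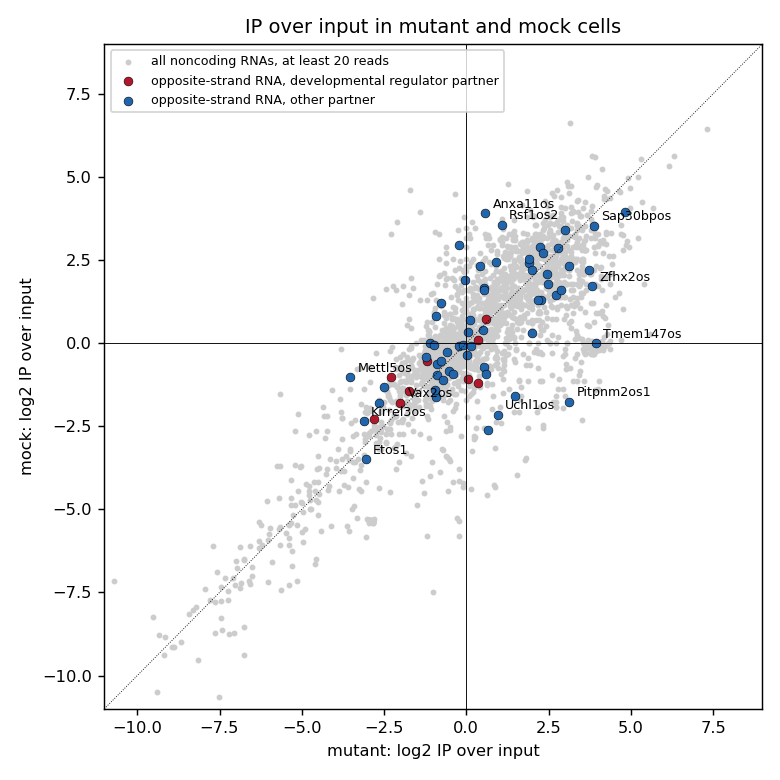
Log2 IP over input in mutant cells (horizontal) and in mock cells (vertical), with a pseudocount of 1, for the 69 opposite-strand RNAs with at least 20 reads (red and blue by partner) over all noncoding RNAs with at least 20 reads (grey). Opposite-strand RNAs with 0 reads in both inputs entered through their IP reads and lie to the upper right. The dotted line marks equal values. Uchl1os, Tmem147os and Pitpnm2os1 lie below it, and Anxa11os and Rsf1os2 above it.

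The developmental list went by the start of the partner's symbol. The rest are therefore not free of such genes, since Zfhx2os, opposite a homeobox gene, is among them. Between the listed developmental regulator partners and the rest, mutant IP over mock IP had medians of 0.28 over 12 members and 0.40 over 131. Of the 12, 0 were at least 4-fold higher and 1, Irx3os, was lower, against 13.5% and 5.99% of all symbols. The Irx3os transcript used had 0 mutant IP reads and 11 mock IP reads and held 34.4% of the symbol's reads. Over its transcripts together it had 15 reads in each IP, and the call was lost. For IP over input in the mutant, 0 of 11 developmental members were higher and 4 lower, with a median of -1.20, against 28 of 119 and 6 with a median of 1.31 for the others. In the mock the medians were -1.02 over 13 and 1.38 over 103, with 2 higher and 1 lower of the developmental members, and 31 higher and 4 lower of the others. With at least 20 reads in the libraries used the medians lay closer, at -1.47 over 8 and 0.04 over 44 in the mutant, and at -1.15 over 8 and -0.08 over 41 in the mock. There 0 of 8 developmental members were higher and 3 lower in the mutant, against 10 and 4 of the 44 others. For the mock 0 of 8 were higher and 1 lower, against 7 and 4 of the 41 others. The developmental list is small, its 4 lower members were Vax2os, Emx2os, Tbx3os1 and Raxos1, and the last had 6 reads in the mutant input and 0 in the other libraries.

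The mutant input was set against the mock input, where fewer cells with an RNA and less RNA per cell cannot be told apart. Macrod2os1, H3f3aos and Slc36a1os were higher in the mutant input. Of 81 measured members 31 were at least 2-fold higher in the mutant input and 12 lower, against 29% and 13.6% of 2533 symbols and 29.3% and 13.6% of all transcripts. With at least 20 input reads 8 of 41 were higher and 2 lower, against 15.7% and 5.52%. The median log2 ratio was 0.63, against 0.48 over all symbols. Scaled to equal totals it was -0.09, against -0.02 over all symbols, with 16 of 73 members higher and 15 lower, beside 17.8% and 17.5% of 2372 symbols, so the direction rests on the scaling. Macrod2os1 had 229 mutant input reads and 108 mock input reads, a ratio of 2.94 (2.33 to 3.74), while its IPs had 157 and 108, a ratio of 1.35 (1.05 to 1.74). H3f3aos, opposite a gene of the replacement histone H3.3, gave 2.5 (1.84 to 3.44) from 119 and 66 reads. Slc36a1os, opposite an amino acid transporter gene, gave 2.53 (1.69 to 3.84) from 71 and 39. With equal totals the log2 ratio was 1.06 for Macrod2os1 and 0.82 for H3f3aos and Slc36a1os, so H3f3aos and Slc36a1os fell short of 2-fold. Kirrel3os gave 2.01 (1.82 to 2.21), whereas Tmem51os1 gave 0.965 (0.790 to 1.18). Lower in the mutant input were Slc13a2os, with 1 read against 14, a ratio of 0.0992 (0.00235 to 0.652), and Appbp2os, at 0.0731 (0.00176 to 0.460). Slc13a2os and Appbp2os reached 20 reads over the 4 libraries only through the mock input, so that minimum adds no support to their ratios. They were the only members with at least 20 reads over the 4 libraries whose interval lay below 1, while for 27 it lay above 1. No such counts were taken over all symbols. The median of all symbols was itself 0.48 as deposited, so an interval above 1 does not set a member apart from the table.

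The sense partners were looked up in the mRNA table, which held 149 partner symbols of 162 members. Between the IPs 11 of 129 measured partners were at least 4-fold higher and 3 lower, against 10.1% and 5.74% of that table, with a median of 0.58 against 0.38. Partners were mostly above input, with 74 of 128 higher and 5 lower in the mutant and 62 of 115 higher and 1 lower in the mock, against 61.1% and 2.32%, and 60.6% and 1.92%, of all mRNA symbols. With equal totals of that table, mutant cells had 32 higher and 15 lower, and mock cells 26 higher and 17 lower. The number above input thus depended on the scaling. Shares of all mRNA symbols were not taken at equal totals, so the rescaled counts have no background beside them.

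For 37 pairs both the opposite-strand RNA and its partner had at least 20 IP reads. Across these pairs, with 35 different partners, the log2 ratios of mutant IP over mock IP had a Spearman correlation of -0.02 and a Pearson correlation of 0.05. The opposite-strand RNA was past 4-fold in 4 pairs, the partner in 2 and both in 0. Uchl1 had 42 mutant IP reads and 46 mock IP reads, or 0.845 (0.543 to 1.31), beside 8.52 for Uchl1os. Tmem147 had 16 and 12, or 1.24 (0.548 to 2.86), beside 9.03 for Tmem147os. Rsf1 had 91 and 77, or 1.09 (0.799 to 1.5), beside 0.103 for Rsf1os2. Pitpnm2 had 37 and 11, or 3.11 (1.56 to 6.77), and was the partner among these whose interval lay above 1. In some pairs both ratios were above 1: Zfhx2 had 179 and 66 reads, or 2.51 (1.88 to 3.38), beside 2.21 (1.52 to 3.24) for Zfhx2os, and Fbxl12, an F-box protein gene, had 48 and 9, or 4.94 (2.40 to 11.5), beside 2.15 (1.54 to 3.02) for Fbxl12os. In the inputs Rapgef4 had 43 mutant reads and 16 mock reads, close to the 42 and 15 of Rapgef4os1. Their IPs differed, with 46 mutant reads and 17 mock reads for Rapgef4 and 61 and 63 for Rapgef4os1.

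**Figure D4:**
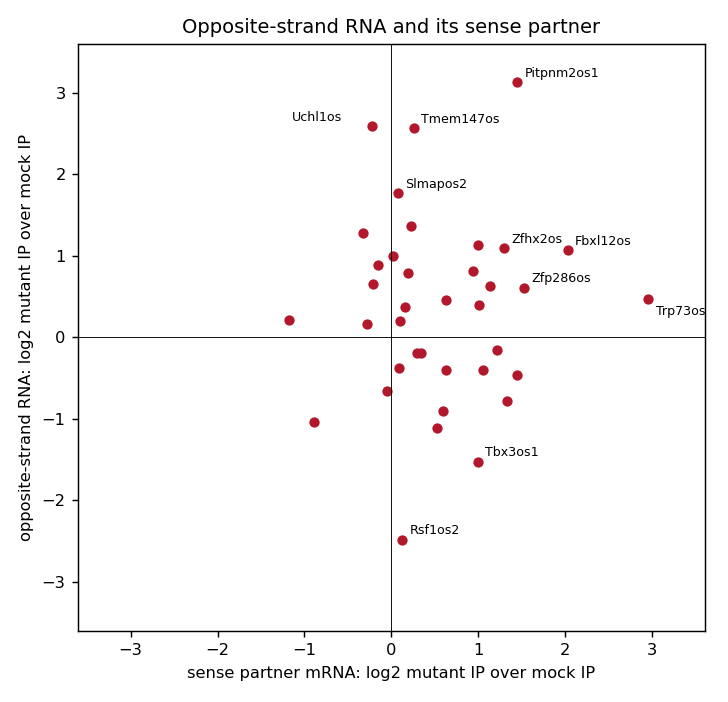
Log2 mutant IP over mock IP, with a pseudocount of 1, of the sense partner mRNA (horizontal) and of the opposite-strand RNA (vertical) for the 37 pairs with at least 20 IP reads on each side. The points follow no line: Uchl1os, Tmem147os and Rsf1os2 lie near the vertical axis, and Trp73os and Fbxl12os lie far to the right.

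Several members were counted on more than 1 annotated transcript, and 12 were also listed in the mRNA table under a RefSeq accession. Of 54 members with several transcripts, 22 had at least 20 reads on the transcript used, which held 43.1% to 100% of the symbol's reads, and at least 80% in 11. Vax2os held 99.9% on a single Ensembl transcript. Its RefSeq entry had 0 reads in the mutant IP, 9 in the mock IP and 0 in both inputs, so the many Vax2os reads belong to that Ensembl transcript. The RefSeq entries of Six3os1 and Emx2os likewise held far fewer reads, 0 in each library for Six3os1, and 9, 1, 17 and 51 for Emx2os in the mutant IP, mock IP, mutant input and mock input. For Zfhx2os the tables gave identical reads, and for Nphs1os 70 and 31 in the IPs, beside 74 and 36. The values of Vax2os, Six3os1 and Emx2os above are therefore those of the Ensembl transcripts.

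For other noncoding RNAs the same ratio between the IPs was taken. Of 8 other antisense RNAs, listed by name or by an ending in as or ot, which also took the snoRNA host Gas5, 0 reached 4-fold higher and 2 lower, at a median of 0.15. The 2 were Gas5 itself, with 1 mutant IP read and 16 mock IP reads, and Hoxaas2, with 0 and 9. Kcnq1ot1, an imprinted antisense RNA, had 3357 mutant IP reads and 2399 mock IP reads, and Tsix, the antisense RNA of Xist, had 33 and 15. Of 25 long noncoding RNAs such as Malat1, Neat1 and Meg3, 0 were higher and 1 was lower, which was the same Gas5 transcript, with a median of 0.30. Over all noncoding symbols, 13.5% were higher and 5.99% lower by the same rule, with a median of 0.47. Both lists are short, so their counts are not read as a difference from all symbols.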

How the data were processed

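Reads were aligned with Bowtie to mm9, per the submitters' processing notes; the counting tool, strand use and treatment of multiple hits (not given in the sources used here) stay unknown. The authors deposited 1 signal column per library in a noncoding table of 6311 Ensembl transcripts and an mRNA table of 16470 RefSeq transcripts. Every deposited signal value (100%) equalled whole reads (tolerance 0.02) over a divisor, 2.7 for the mutant IP, 2.5 for the mock IP, 1.8 for the mutant input and 2.5 for the mock input. The meaning of these divisors is unknown. Backgrounds were taken over all transcripts and over 1 transcript per symbol. With 1 library per group no test was made. Log2 ratios were computed from the deposited values with a pseudocount of 1 among features with at least 1 in a library used, on the whole table. Calls were at 4-fold, or 2-fold between inputs. Exact conditional binomial 95% intervals used the recovered reads. A library with 0 reads was given a floor of 3 reads, so that a fold is a bound. Members with at least 20 reads in all, the 5 highest and 5 lowest between IPs and in specific enrichment among those with at least 10 reads, their partners and Dis3l2 could be named. The shown promoters and the other named members were chosen after values were seen. Pseudocounts of 0.5 and 5, other minimum values, median centring, equal totals and summed transcripts were tried; the 20-read minimum, leaving out Etos1 and the partner alternatives were added after seeing the data. Members and lists were chosen with earlier results of these data known. Intervals and calls were tested on simulated data. Promoters came from RefSeq (GRCm38.p6), matched by symbol for 113 of 187 members. Python 3.11.15 with SciPy 1.17.1 and pandas 2.3.3 was used.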

Additional observations from a re-analysis of the deposited data

Results flagged for a closer look

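For 3 members the 95% interval of IP over input lay on opposite sides of 1 in mutant and in mock cells. The difference between the conditions was not tested. For Uchl1os the log2 difference of IP over input, mutant minus mock, was 3.11, with 46 IP and 15 input reads in mutant cells and 5 IP and 31 input reads in mock cells. For Pitpnm2os1 it was 4.90, with 21 IP and 0 input reads in mutant cells and 0 IP and 6 input reads in mock cells. For Mccc1os it was -1.74, with 29 IP and 38 input reads in mutant cells and 48 IP and 26 input reads in mock cells. The Mccc1os transcript used held 63.5% of the symbol's reads. Its next transcript had 19 IP and 8 input reads in mutant cells and 37 IP and 9 input reads in mock cells. That transcript lay above input in both conditions, so it did not lie on opposite sides of input. Its IP over input was still lower in mutant than in mock cells, as for the transcript used. No interval was computed for it.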

How the results depend on the processing

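Each group has 1 library, so no library could be left out. No paired analysis was possible because the groups share no replicates beyond 1 library each. Counts are given as higher then lower. Between the IPs a pseudocount of 0.5 gave 21 members higher, a pseudocount of 5 gave 0 and 0, a minimum value of 5 gave 6 and 7, and at least 20 reads gave 3 and 1. The median was 0.032 with centred libraries and 0.018 with equal totals. For specific enrichment a pseudocount of 0.5 gave 27 higher, a pseudocount of 5 gave 1 and 0, a minimum of 5 gave 8 and 10, and 20 reads gave 6 and 4. Its median turned to -0.14 under both minimums. For mutant IP over input the pseudocounts gave 52 higher at 0.5, and 3 and 5 at 5 (median 0.37). A minimum of 5 gave 16 higher (median 0.14), centring 48 and 6, equal totals 6 lower, and 20 reads 10 higher (median -0.0095). For mock IP over input the pseudocounts gave 51 and 9 at 0.5, and 1 and 3 at 5. A minimum of 5 gave 16 higher (median -0.071), 20 reads 7 higher (median -0.42, the opposite sign), and centring, equal totals and summed transcripts 3 lower each (median 1.59 with centring). Between the inputs a pseudocount of 5 gave 4 and 1, a minimum of 5 gave 9 and 3, 20 reads gave 8 and 2, centring 14 higher, and equal totals 16 higher with a median of -0.086. For the partners between the IPs, a minimum of 5 gave 1 lower and equal totals 6 and 1. Equal totals gave 32 and 15 for their mutant IP over input, and 26 and 17 for their mock IP over input. All symbols of the mRNA table were not counted under these settings. All symbols of the noncoding table moved with the same settings. Between the IPs they gave 20.7% and 12.3% at a pseudocount of 0.5, 3.14% and 0% at 5, and 15.5% and 3.68% at a minimum of 5. For specific enrichment these were 20.4% and 16.8%, 3.45% and 0.328%, and 15.3% and 6.92%. For mutant IP over input they were 36% and 14.6%, 6.19% and 6.58%, and 30.3% and 14.5%, with 35.3% and 7.9% when centred and 28.9% and 8.13% with equal totals. For mock IP over input they were 36.2% and 14.7%, 3.22% and 7.39%, and 26% and 16.1%, with 31.2% and 9.24% when centred, 30% and 9.43% with equal totals and 24.2% and 10.5% with summed transcripts. Between the inputs they were 6.67% and 2.29% at a pseudocount of 5, 19.8% and 5.87% at a minimum of 5, and 13.4% and 17.6% when centred. Summed transcripts ended 3 of 9 calls between the IPs and 4 of 10 in specific enrichment among called members with several transcripts. The causes of these shifts were not tested. Of the single-member results, 100 moved beyond counting error and 2865 did not. Several settings only drop members and leave the ratio of a kept member unchanged, so the 2865 do not measure stability. Counting error is also wide at low reads. Calls at low reads are limited by depth, since 10 of the 13 members higher between the IPs had under 20 IP reads.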
